A study of Rattus norvegicus and Mus musculus with 17 samples.

Results

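The ATP-binding cassette (ABC) transporter genes described here are the members of subfamilies A to G whose symbols begin with Abca to Abcg and a digit. The 3 deposited tables list 46 of them, 16 mouse genes and 30 rat genes, among 14072 listed genes when mouse and rat genes are counted separately and each rat gene once. The table of diethylnitrosamine (DEN) mouse liver lists 16 members of 4649 genes, that of Morris hepatoma lists 30 members of 9082 genes, and that of regenerating liver lists 6 members of 2093 genes. All 6 regenerating liver members are also among the 30 of the hepatoma table. The reference annotations hold 50 protein-coding genes with such symbols in mouse and 54 in rat. The 34 mouse and 24 rat genes that no table lists, Abcb4, Abcg2 and Abca1 of both species among them, have no value here.

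ABC transporters bind ATP on a pair of nucleotide-binding domains and use its hydrolysis to move substrates across a membrane. In hepatocytes a set of them in the canalicular membrane builds bile: Abcb11 exports bile salts, Abcc2 exports conjugated bilirubin and drugs, and the heterodimer of Abcg5 and Abcg8 exports sterols. Other members export drugs and conjugates across the basolateral membrane, import fatty acids into peroxisomes or serve mitochondria, and Abce1 and the Abcf proteins have no membrane domain and act at the ribosome.

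RNA was sequenced from 17 liver or tumour samples of male animals. DEN livers with tumours (n = 3) came from C57BL/6 mice aged 8 months, and DEN livers before tumours (n = 3) from such mice aged 5 months. All 6 mice had received the liver carcinogen DEN at 50 mg/kg when 14 days old and TCPOBOP, an agonist of the nuclear receptor CAR, at 2 mg/kg 30 days later, so age and tumours cannot be told apart, and no untreated mouse was compared. Morris hepatomas (n = 4) grew for 2 weeks in livers of 10-week-old ACI rats after cells of the hepatoma line MH3924a had been injected there. Regenerating livers (n = 4) were taken 24 h after partial hepatectomy from ACI rats aged 10 to 12 weeks, and control livers (n = 3) came from ACI rats without treatment. The same 3 control libraries serve both rat comparisons. The hepatomas derive from 1 cell line, and separate animals are not stated for the libraries, so the p-values reflect spread among libraries, which may be technical.

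Values are read counts scaled by transcript length and library depth (RPKM), 0.001 stands for no reads, and fold changes are given as log2 values of RPKM + 1 with their SE, which makes the changes of weakly expressed genes look smaller. A gene entered a table only when its deposited p-value was below 0.05, so a listed member had to differ, and counts of members are read against the share of all tested genes. Read totals are not given in the sources used here. Within each group, the steps of low values put relative depth between 0.92 and 1.14 of library 1 in each library where they could be read.

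Hepatocyte markers differed between the libraries. In hepatomas 8 of 10 hepatocyte markers are listed, and they summed to 889, 34.8, 21104 and 17724 RPKM, against 105192, 93438 and 80544 RPKM in control livers, and hepatoma libraries 1 and 2 therefore stand apart from libraries 3 and 4. Singly, 0 of these 8 markers passed the threshold in limma, and 3 were lower at an unadjusted p under 0.05. Defining markers of other cells also differed: 7 of 10 stellate and fibroblast markers summed to between 471 and 1195 RPKM in hepatomas, against 20.2 to 84.6 RPKM in control livers, and 5 of 10 endothelial markers to between 70.8 and 102 RPKM, against 9.41 to 18.0 RPKM. The 2 listed of 8 cholangiocyte markers summed to between 196 and 277 RPKM in hepatomas, against 5.13 to 9.60 RPKM in control livers. The 4 listed of 11 macrophage markers summed to between 122 and 173 RPKM in hepatomas, overlapping the 145 to 168 RPKM of control livers. Of these, 2 were called higher and 1 lower. With library medians set equal or after quantile normalization, 2 of 5 endothelial, 1 of 2 cholangiocyte and 1 of 2 macrophage markers called higher turned to lower. In DEN livers 4 of 10 hepatocyte markers summed to between 122296 and 137991 RPKM with tumours, against 37977 to 50449 RPKM before tumours. Alb and Apoa1 carry that sum and were called higher, and the other 2 did not pass the threshold, with fold changes in opposite directions. Of 5 endothelial markers, which summed to between 26.1 and 43.1 RPKM with tumours, against 21.0 to 28.3 RPKM before tumours, 3 were called higher and 1 lower. Macrophage markers, 4 of 11 listed, summed to between 25.2 and 44.9 RPKM with tumours, against 63.1 to 71.3 RPKM before tumours, with 1 called higher and 1 lower. The 1 listed cholangiocyte marker (7.99 to 10.9 RPKM with tumours, against 2.38 to 4.36 RPKM before tumours) and the 1 listed stellate marker (11.0 to 19.5 RPKM, against 2.76 to 5.20 RPKM) were called higher. For regenerating livers no hepatocyte marker is listed, and 2 endothelial markers summed to between 8.46 and 15.2 RPKM, against 3.14 to 4.78 RPKM in control livers, and 3 stellate and fibroblast markers to between 55.1 and 73.6 RPKM, against 17.4 to 46.3 RPKM. The part of cell mixture in the results below was not tested, and in bulk samples fewer cells of a type and less RNA per cell cannot be told apart.

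In DEN livers with tumours 3 of the 15 tested members rose and 7 fell, while 5 missed the threshold of an adjusted p of 0.05 in limma with Benjamini-Hochberg adjustment over all protein-coding genes. Of all 3684 tested genes 17.9% were called higher and 49.5% lower, so the split of the members was close to that of the table. The members' median log2 fold change was -0.58, against -0.56 for all tested genes. Abcg3 lay under 1 RPKM in each library and was not tested. Abcb1a and Abcc10 reached 1 RPKM throughout 1 group only, and the other 13 tested members did so in both. Abcb1a and Abcc10 thus passed the filter through 1 group only and so had to differ.

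In Morris hepatomas 18 of the 26 tested members rose and 7 fell, and Abcb10 missed the threshold. Here 85.5% of all 8233 tested genes were called higher and 8.73% lower. The members' counts stand against these shares with no test of the difference. Their median log2 fold change was 0.94, against 1.58 for all tested genes, and of the 18 members called higher 8 lay above that median and 10 below it. In both groups 11 of the 26 reached 1 RPKM, and of those 8 rose and 2 fell; the other 15 passed the filter through 1 group only and so had to differ. Setting library medians equal left 3 members higher and 15 lower, and quantile normalization 4 and 12, although the scaled libraries hold preselected genes and nothing else. Fold changes that keep their direction under both scalings are named as such below.

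**Figure D1:**
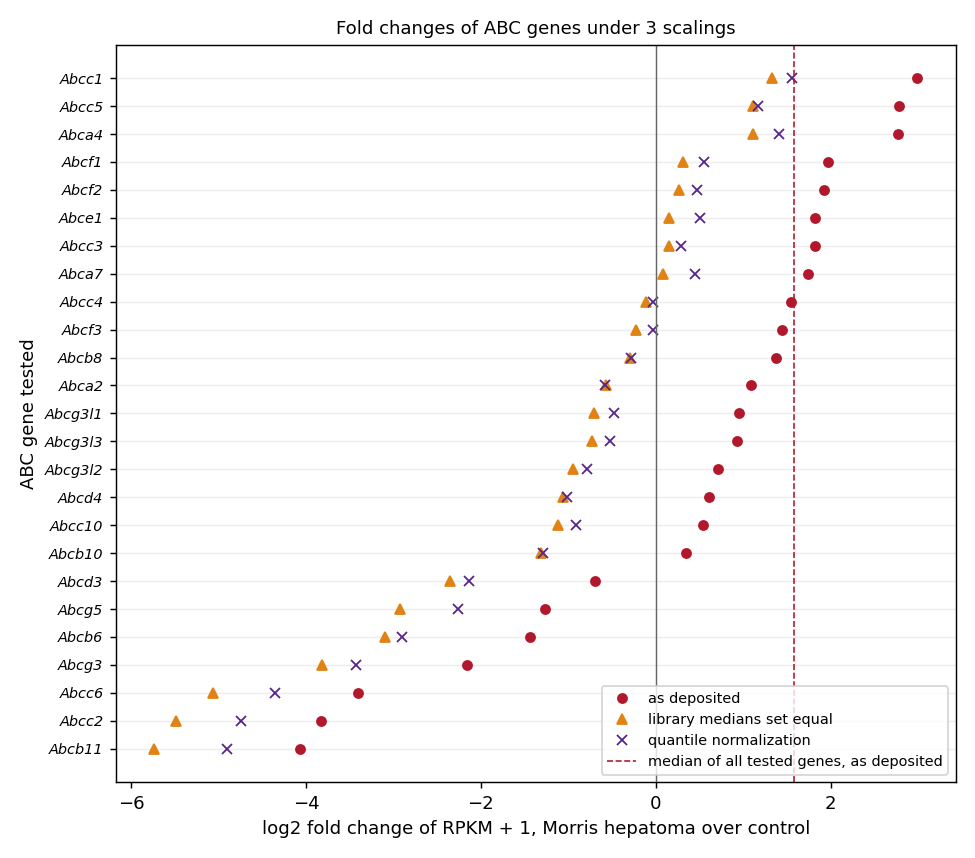
Log2 fold changes of RPKM + 1 in Morris hepatomas over control livers (horizontal axis) for 25 of the 26 tested ABC genes, as deposited, with library medians set equal and after quantile normalization. The dashed line is the median of all tested genes at 1.58. The 8 genes at the top and the 7 at the bottom keep their sign in all 3 versions, and the 10 between them change sign.

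In regenerating livers 3 of the 5 tested members rose and none fell. Of all 1703 tested genes 21.2% were called higher and 0.763% lower. Abcf1 and Abcf2 did not pass the threshold, and Abca7, the other listed member, lay under 1 RPKM in each library. Abcg8 passed the filter through the regenerating livers only and so had to differ. In the direct comparison of hepatomas with regenerating livers, fitted on genes listed in both rat tables, 4 of 6 members were higher and 2 lower in hepatomas, where 80.8% of the 1673 tested genes were called higher and 4% lower. Abca7, Abcg5 and Abcg8 passed that filter through 1 group only and so had to differ.

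Several canalicular exporters differed between the rat groups. Abcg5 and Abcg8, the partners of the sterol exporter, rose in regenerating livers, and both were far lower in hepatomas. Abcg5 (GeneID 114628) had 10.7, 11.7, 10.6 and 9.15 RPKM in regenerating livers, against 1.82, 1.79 and 1.91 RPKM in control livers. The 4 regenerating libraries lay close together and well above the 3 controls, with a log2 fold change of 2.02 ± 0.12, adjusted p = 8.12e-05. In hepatomas Abcg5 had 0.136, 0.0221, 0.236 and 0.378 RPKM, below each control library (-1.26 ± 0.14, adjusted p = 4.4e-05). Against regenerating livers the hepatomas were lower by a log2 difference of -3.28 ± 0.14, adjusted p = 2.05e-09. Every direction held under both scalings. In each comparison with hepatomas Abcg5 passed the filter through the other group only and so had to differ.

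Abcg8 (GeneID 155192) had 2.00, 2.40, 1.84 and 2.46 RPKM in regenerating livers, against 0.454, 0.264 and 0.696 RPKM in control livers. The groups did not overlap (1.11 ± 0.14, adjusted p = 0.0106), but the call was lost without control library 1 (adjusted p = 0.0646) and under both scalings (adjusted p = 0.741 and 0.41). Of the 4 hepatomas, libraries 1 and 2 held no Abcg8 reads and libraries 3 and 4 had 0.0302 and 0.0362 RPKM. Abcg8 was too low for a test of hepatomas against controls. Against regenerating livers it was lower in hepatomas by a log2 difference of -1.64 ± 0.11, adjusted p = 9.46e-08. Abcg8 passed the filter through the regenerating livers only, here and against controls, and so had to differ.

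**Figure D2:**
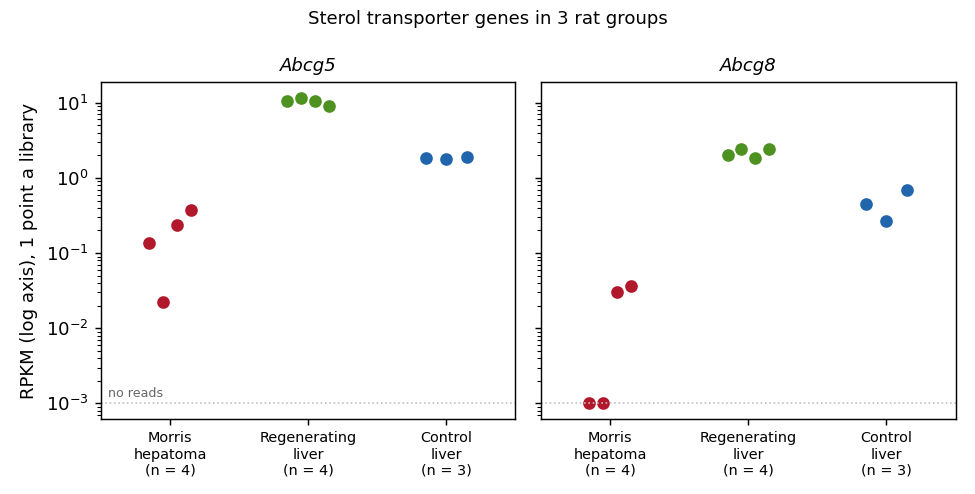
Abcg5 and Abcg8 in RPKM (vertical log axis), 1 point for each library of Morris hepatomas, regenerating livers and control livers. For both genes every regenerating library lies above every control library and every hepatoma library lies below them, and 2 hepatoma libraries hold no Abcg8 reads.

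Abcg8 and Abcg5 are adjacent in the rat genome, on opposite strands with no coding gene between them, and their starts are 205 bases apart in the RefSeq annotation of GRCr8. That interval, chr6:15717731-15717935, is printed on the + strand because 1 short region precedes both genes that moved together, with each AGATAA, the letters bound by GATA factors, in capitals.
Abcg8-Abcg5 interval: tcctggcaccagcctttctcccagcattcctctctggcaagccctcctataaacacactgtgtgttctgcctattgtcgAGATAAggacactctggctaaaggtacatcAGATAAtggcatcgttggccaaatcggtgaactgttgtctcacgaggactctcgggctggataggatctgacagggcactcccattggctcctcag
AGATAA was searched on both strands and occurs 2 times, 126 and 96 bases before the start of Abcg5. At least 1 match stands in 8.35% of 33469 rat promoter windows of the same length, and 2 or more in 0.604%. Of 24 rat members with a promoter window, Abca4, Abcg8 and Abcg5 hold a match. Over control livers, hepatomas had Abca4 called higher, Abcg5 called lower, and Abcg8 not tested. AGGTCA, letters recognised by nuclear receptors, has no match here and 1 or more in 11.7% of windows. TATAAA and CCAAT were searched as well and occur 1 time each, with a match in 10.7% and 29.7% of windows. A match is a description of letters and no measured binding site.

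Abcb11 and Abcc2 fell in hepatomas. Both passed the filter through the control livers only and so had to differ. Abcb11 (GeneID 83569), the bile salt export pump, had 0.861, 0.0488, 12.6 and 6.68 RPKM in hepatomas, against 79.9, 92.0 and 33.0 RPKM in control livers. Hepatoma library 2 was lowest and the groups did not overlap, with a log2 fold change of -4.07 ± 1.03, adjusted p = 0.0278. Abcc2 (GeneID 25303), the exporter of conjugated bilirubin, had 0.541, 0.0333, 5.74 and 4.01 RPKM in hepatomas, against 52.3, 60.6 and 16.1 RPKM in control livers. Its log2 fold change was -3.82 ± 0.86, adjusted p = 0.0161. Both fell further under the scalings, but the Abcb11 call was lost without any 1 of the 3 control libraries or hepatoma library 1 (adjusted p between 0.0596 and 0.114). The Abcc2 call was lost without control library 1 or 2 (adjusted p = 0.0742 and 0.0745), and with a pseudocount of 0.1 both calls were lost (0.0755 for Abcb11 and 0.055 for Abcc2). With hepatoma libraries 3 and 4 left out, an alternative added after the data were seen, both calls held.

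Both genes moved with albumin (Alb), a defining hepatocyte transcript. Alb itself had 574, 19.0, 10944 and 10924 RPKM in hepatomas, against 67213, 60249.7 and 48189.7 RPKM in control livers (-5.74 ± 2.44, adjusted p = 0.17). For each 1000 RPKM of Alb, Abcb11 stood at 1.50, 2.57, 1.15 and 0.612 RPKM in hepatomas, against 1.19, 1.53 and 0.685 RPKM in control livers. Abcc2 for each 1000 RPKM of Alb stood at 0.941, 1.75, 0.524 and 0.368 RPKM in hepatomas, against 0.778, 1.01 and 0.335 RPKM in control livers. On this measure only hepatoma library 2 lay above the control range for both genes, and hepatoma library 4 lay below it for Abcb11. Control library 3 was the lowest control for both genes. On the same measure Abcg5 stood at 0.237, 1.16, 0.0216 and 0.0346 RPKM in hepatomas, against 0.0271, 0.0298 and 0.0396 RPKM in control livers. Abcg3 stood at 1.35, 24.0, 0.347 and 0.197 RPKM, against 0.1601, 0.1845 and 0.1812 RPKM. Abcb6 stood at 4.65, 121, 0.704 and 0.388 RPKM, against 0.1952, 0.2299 and 0.2031 RPKM. Abcg3 and Abcb6 thus lay above the control range in every hepatoma library. Abcg5 lay above it in hepatoma libraries 1 and 2, below it in library 3 and within it in library 4.

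**Figure D3:**
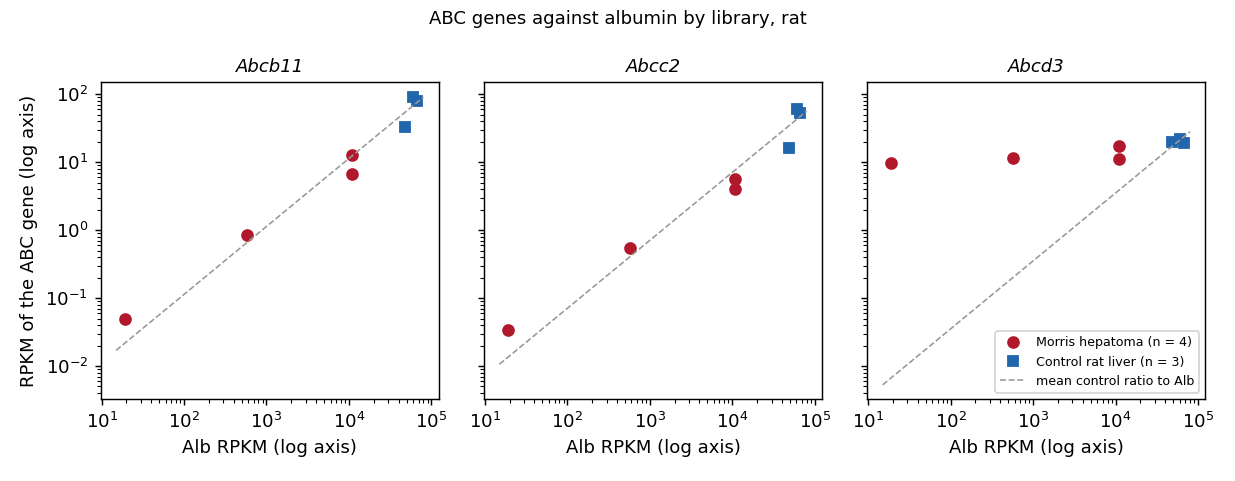
Abcb11, Abcc2 and Abcd3 in RPKM (vertical log axis) against Alb in RPKM (horizontal log axis), 1 point for each library of 4 Morris hepatomas and 3 control livers; the dashed line is the mean control ratio to Alb. Abcb11 and Abcc2 follow the line through the hepatomas, while Abcd3 stays between 9.62 and 21.6 RPKM in all 7 libraries.

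The 250 bases before the RefSeq start of Abcc2, chr1:252613625-252613874 on the + strand of GRCr8, are printed because it fell in hepatomas and its promoter holds AGGTCA, letters recognised by nuclear receptors, in more than 1 copy. The capitals mark AGGTCA and its reverse complement.
Abcc2 upstream: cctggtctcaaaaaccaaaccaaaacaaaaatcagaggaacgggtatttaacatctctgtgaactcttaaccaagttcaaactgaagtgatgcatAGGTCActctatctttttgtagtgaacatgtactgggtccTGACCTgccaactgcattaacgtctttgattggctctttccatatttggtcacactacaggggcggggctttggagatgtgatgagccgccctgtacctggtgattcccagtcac
AGGTCA was searched on both strands and occurs 2 times, 155 and 115 bases before the start. At least 1 match stands in 14.1% of the rat promoter windows of this length and 2 or more in 1.27%. Of 24 rat members with a promoter in the table, Abcc2, Abcb8, Abcg4 and Abcb6 hold a match in this window; in hepatomas Abcc2 and Abcb6 were called lower, Abcb8 higher, and Abcg4 was not tested.

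In DEN mice Abcb11 (GeneID 27413) fell as well. It had 30.7, 42.8 and 26.6 RPKM in livers with tumours, against 73.5, 73.7 and 111 RPKM in livers before tumours. The groups did not overlap, and the log2 fold change was -1.34 ± 0.23, adjusted p = 0.00656; with library medians set equal the adjusted p was 0.056 and after quantile normalization 0.302. Alb moved the other way in these livers, with 86115, 78943 and 84182 RPKM in livers with tumours, against 20865, 24972 and 28261 RPKM in livers before tumours (1.76 ± 0.17, adjusted p = 0.000612, and an adjusted p of 1 after quantile normalization). Abcb1a (GeneID 18671), a multidrug efflux pump of the canalicular membrane, rose. It had 1.88, 2.56 and 2.12 RPKM in livers with tumours, against 0.480, 0.393 and 0.700 RPKM in livers before tumours, a log2 fold change of 1.06 ± 0.13, adjusted p = 0.00176 that held under both scalings. Abcb1a passed the filter through the livers with tumours only and so had to differ. Reads of Abcb1a may be shared with its close paralog Abcb1b, and how such reads were counted is not given in the sources used here.

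Genes that work beside the canalicular exporters were read from lists of partners. All 7 listed uptake transporters of the hepatocyte fell in DEN livers with tumours, where 49.5% of all tested genes were called lower, with a median log2 fold change of -2.45, and these 7 calls held under both scalings. In hepatomas 4 of 6 fell, against 8.73% of all tested genes called lower there. Slc10a1, which brings bile salts into the hepatocyte, had 28.5, 97.9 and 40.0 RPKM in livers with tumours, against 496, 445 and 515 RPKM in livers before tumours in DEN mice (-3.30 ± 0.41, adjusted p = 0.0031). In the rat it had 4.12, 1.25, 13.1 and 18.7 RPKM in hepatomas, against 485, 593 and 92.5 RPKM in control livers (-5.32 ± 1.04, adjusted p = 0.00918). Nr1h4, the bile acid receptor FXR that drives Abcb11, had 12.0, 24.9 and 15.6 RPKM in livers with tumours, against 71.9, 88.9 and 49.1 RPKM in livers before tumours (-1.96 ± 0.29, adjusted p = 0.00487). It had 1.39, 0.739, 10.6 and 6.17 RPKM in hepatomas, against 39.5, 38.0 and 16.6 RPKM in control livers (-2.81 ± 0.78, adjusted p = 0.0354). Both genes thus fell in both tumour models, in every library compared. Of 6 listed nuclear receptor genes and partners 5 fell in DEN livers, against the 49.5% of all tested genes, and under the scalings Nr1h4 alone of these 5 kept its call. Of 7 tested in hepatomas 3 fell and 2, Nfe2l2 and Nr1h2, rose, against 8.73% of all tested genes called lower and 85.5% higher. Nfe2l2 and Nr1h2 turned to lower under both scalings. The scaffold gene Pdzk1 fell in DEN livers (-0.89 ± 0.20, adjusted p = 0.022), a call lost under both scalings (adjusted p = 0.208 and 0.706). In hepatomas Pdzk1 fell (-1.59 ± 0.28, adjusted p = 0.00112), whereas Ezr, the membrane linker ezrin, rose to 75.9, 62.8, 48.4 and 56.9 RPKM in hepatomas, against 2.02, 1.95 and 1.69 RPKM in control livers (4.41 ± 0.18, adjusted p = 3.71e-07).

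Of 6 tested members of subfamily C listed as drug or basolateral exporters, 5 rose in hepatomas and Abcc6 fell, a share near the 85.5% of all tested genes called higher. All 5 that rose passed the filter through the hepatomas only and so had to differ. Abcc1 (GeneID 24565), a broad exporter of glutathione conjugates that quiescent hepatocytes hardly express, had 15.5, 6.09, 6.52 and 7.60 RPKM in hepatomas, against 0.0655, 0.174 and 0.288 RPKM in control livers. Its log2 fold change was 2.99 ± 0.28, adjusted p = 1.51e-05, with hepatoma library 1 the highest. Abcc5 (GeneID 116721), an exporter of cyclic nucleotides, had 12.2, 10.2, 7.28 and 10.8 RPKM in hepatomas, against 0.423, 0.620 and 0.753 RPKM in control livers (2.78 ± 0.19, adjusted p = 2.15e-06). No hepatoma library of either gene overlapped the controls, and both rises held under both scalings.

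Abcc3 (GeneID 140668), a basolateral exporter of conjugates, had 5.60, 3.79, 3.52 and 4.19 RPKM in hepatomas, against 0.435, 0.610 and 0.403 RPKM in control livers (1.82 ± 0.17, adjusted p = 1.29e-05). Abcc4 (GeneID 170924), a basolateral exporter of cyclic nucleotides and bile acids, had 7.10, 4.15, 3.31 and 3.98 RPKM in hepatomas, against 0.995, 1.19 and 0.501 RPKM in control livers (1.55 ± 0.24, adjusted p = 0.00038). Abcc3 kept a positive sign under the scalings without passing the threshold, and Abcc4 turned negative. The drug exporter Abcc10 (GeneID 316231) had 1.89, 1.60, 2.20 and 1.93 RPKM in hepatomas, against 1.02, 1.32 and 0.670 RPKM in control livers (0.55 ± 0.16, adjusted p = 0.0213), a rise that turned to lower under both scalings and was lost without control library 1 or 3. In DEN mice its counterpart (GeneID 224814) had 0.681, 0.667 and 0.718 RPKM in livers with tumours, against 1.73, 1.94 and 1.08 RPKM in livers before tumours (-0.60 ± 0.15, adjusted p = 0.0314). The DEN call was lost without library 1 or 2 before tumours or library 1 or 3 with tumours, and under both scalings. In DEN mice Abcc10 passed the filter through the livers before tumours only and so had to differ.

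Abcc6, which the liver uses to release ATP and whose loss causes ectopic calcification, fell in both tumour models. The rat gene (GeneID 81642) had 0.320, 0.0899, 7.14 and 5.65 RPKM in hepatomas, against 33.6, 45.4 and 18.3 RPKM in control livers (-3.40 ± 0.90, adjusted p = 0.0315). It passed the filter through the control livers only and so had to differ. Libraries 3 and 4 were far above libraries 1 and 2, all 4 were below the controls, and the call was lost without any 1 of the control libraries or hepatoma library 1 (adjusted p between 0.0707 and 0.128) and with a pseudocount of 0.1 (0.0817). For each 1000 RPKM of Alb it stood at 0.557, 4.73, 0.652 and 0.517 RPKM in hepatomas, against 0.500, 0.754 and 0.380 RPKM in control livers. In DEN mice Abcc6 (GeneID 27421) had 9.00, 9.92 and 7.05 RPKM in livers with tumours, against 26.4, 23.7 and 18.3 RPKM in livers before tumours. That fall held under both scalings and without each library in turn (-1.30 ± 0.18, adjusted p = 0.00257). Abcc8 (GeneID 25559), the sulfonylurea receptor of potassium channels, was too low for a test. It had 0.0118, 0.001, 0.221 and 0.0307 RPKM in hepatomas, against 1.49, 1.10 and 0.208 RPKM in control livers, and the groups overlapped.

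**Figure D4:**
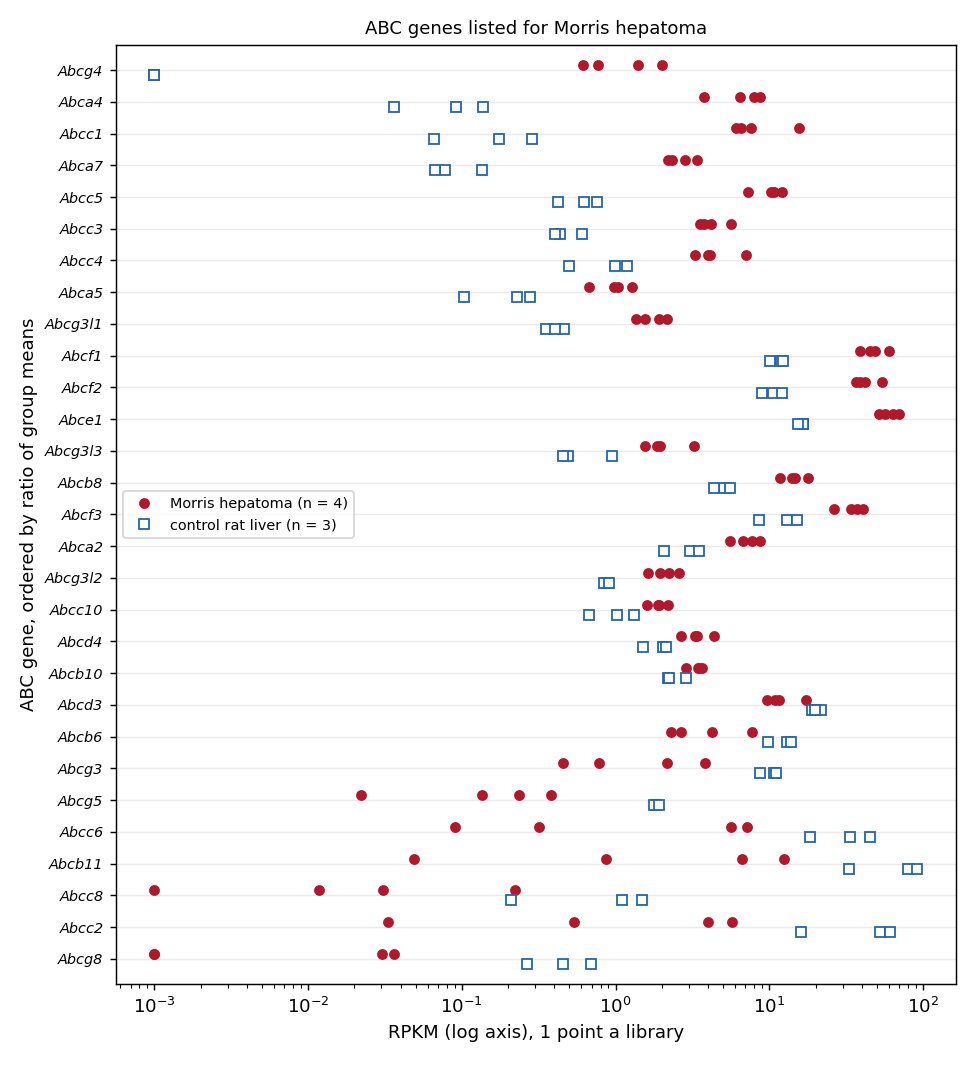
RPKM by library (horizontal log axis) of 29 of the 30 ABC genes listed for Morris hepatomas, ordered by the ratio of group means; filled circles are 4 hepatomas and open squares 3 control livers, and points at 0.001 hold no reads. Only Abcb10 and Abcc8 overlap between the groups in these libraries, but every listed gene had to differ. The share without overlap among all listed genes was not counted. The hepatoma points of Abcc6, Abcb11 and Abcc2 are spread widely.

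Among the lipid transporters, all 3 tested members of subfamily A, Abca2, Abca4 and Abca7, rose in hepatomas, where 85.5% of all tested genes did, with Abca2 turning to lower under both scalings. Abca4 and Abca7 passed the filter through the hepatomas only. Abca4 (GeneID 310836), known as the retinoid lipid transporter of photoreceptors, had 7.92, 8.66, 3.76 and 6.46 RPKM in hepatomas, against 0.0910, 0.137 and 0.0364 RPKM in control livers (2.77 ± 0.24, adjusted p = 7.55e-06), a rise that held under both scalings. Abca7 (GeneID 299609), a phospholipid transporter of phagocytes and brain, had 3.39, 2.33, 2.18 and 2.84 RPKM in hepatomas, against 0.0774, 0.0667 and 0.136 RPKM in control livers (1.74 ± 0.15, adjusted p = 8.92e-06), a call lost under both scalings (adjusted p = 1 and 0.124). In regenerating livers Abca7 had 0.293, 0.188, 0.183 and 0.284 RPKM, above each control library but too low for a test. Hepatomas lay above regenerating livers by a log2 difference of 1.56 ± 0.13, adjusted p = 5.58e-07, which did not pass the threshold once medians were set equal (adjusted p = 1). Abcg4 (GeneID 300664), a sterol transporter of the brain, had 1.40, 0.616, 0.773 and 2.01 RPKM in hepatomas and no reads in any control library, and it was too low for a test. Abca5 (GeneID 286970), a lysosomal member, had 1.28, 0.978, 0.671 and 1.03 RPKM in hepatomas, against 0.103, 0.230 and 0.277 RPKM in control livers and was too low as well.

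Abca2, an endolysosomal lipid transporter prominent in oligodendrocytes, went opposite ways in the tumour models. The rat gene (GeneID 79248) had 8.77, 6.78, 5.59 and 7.69 RPKM in hepatomas, against 3.07, 3.47 and 2.07 RPKM in control livers (1.09 ± 0.20, adjusted p = 0.00127), but the sign turned under both scalings. In DEN mice (GeneID 11305) it had 2.42, 2.43 and 3.57 RPKM in livers with tumours, against 6.99, 5.62 and 6.57 RPKM in livers before tumours. This fall (-0.97 ± 0.16, adjusted p = 0.00565) kept its sign under both scalings, with an adjusted p of 0.0711 when medians were set equal. Abca3 (GeneID 27410), the phospholipid transporter of lung lamellar bodies, rose in DEN livers with tumours. It had 14.7, 10.8 and 10.1 RPKM in livers with tumours, against 4.99, 3.84 and 6.96 RPKM in livers before tumours (1.05 ± 0.21, adjusted p = 0.0141), and the call was lost without library 1 or 2 before tumours (adjusted p = 0.0667 and 0.0575). Abcg1 (GeneID 11307), which exports cholesterol to high-density lipoprotein, had 2.79, 2.74 and 2.31 RPKM in livers with tumours, against 1.72, 1.89 and 1.38 RPKM in livers before tumours and did not pass the threshold (0.44 ± 0.13, adjusted p = 0.0672), but it was called higher with medians set equal (adjusted p = 0.00462) and after quantile normalization (adjusted p = 0.0134).

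Abcg3, a rodent member with no established substrate, and its rat relatives differed among themselves. Abcg3 (GeneID 498327) had 0.776, 0.457, 3.79 and 2.16 RPKM in hepatomas, against 10.8, 11.1 and 8.73 RPKM in control livers (-2.16 ± 0.40, adjusted p = 0.00267), a fall that held under both scalings. Abcg3l1, Abcg3l2 and Abcg3l3 all rose by less than the median of all tested genes, 85.5% of which were called higher. These 3 passed the filter through the hepatomas only and Abcg3 through the control livers only, so each had to differ. Abcg3l1 (GeneID 289453) had 1.91, 2.16, 1.37 and 1.55 RPKM in hepatomas, against 0.463, 0.353 and 0.407 RPKM in control livers (0.96 ± 0.15, adjusted p = 0.000382). Its fold change, and those of Abcg3l2 at 0.71 ± 0.15, adjusted p = 0.00313 and Abcg3l3 at 0.93 ± 0.20, adjusted p = 0.00397, turned negative under both scalings. Abcg3 and Abcg3l3 are neighbours with no coding gene between them in GRCr8. These genes are similar in name and kind, reads may be shared among them, and how shared reads were counted is not given in the sources used here. In DEN mice Abcg3 (GeneID 27405) had 0.693, 0.796 and 0.664 RPKM in livers with tumours, against 0.541, 0.482 and 0.511 RPKM in livers before tumours.

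The peroxisomal importers of subfamily D gave both a rise, of Abcd2, and a fall, of Abcd3, in DEN mice. Abcd2 (GeneID 26874), an importer of very long chain fatty acids that adult liver expresses weakly, had 9.73, 14.7 and 14.5 RPKM in livers with tumours, against 2.33, 2.34 and 1.65 RPKM in livers before tumours. With tumours it stood 6.16-fold higher by group means, with a log2 fold change of 2.16 ± 0.18, adjusted p = 0.000393 that held under both scalings and without each library in turn. Abcd3 (GeneID 19299), the abundant importer of branched-chain and long-chain acyl-CoA, had 21.8, 39.6 and 27.9 RPKM in livers with tumours, against 101, 75.3 and 124 RPKM in livers before tumours. It fell by a log2 fold change of -1.73 ± 0.25, adjusted p = 0.00385, with an adjusted p of 0.0525 after quantile normalization. Their opposite moves brought the mean of Abcd2 to 13.0 RPKM and that of Abcd3 to 29.8 RPKM with tumours, against 2.11 and 99.9 RPKM before tumours. The peroxisomal import receptor gene Pex5 fell too (-1.28 ± 0.14, adjusted p = 0.00104), a call that held under both scalings. The assembly genes Pex14 and Pex19 were called lower but lost the call under both scalings, and Pex14 turned to higher after quantile normalization.

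The rat Abcd3 (GeneID 25270) had 11.6, 9.62, 17.4 and 11.0 RPKM in hepatomas, against 19.0, 21.6 and 20.0 RPKM in control livers (-0.69 ± 0.21, adjusted p = 0.0244). The groups did not overlap, but the call was lost without control library 1 or 2 or hepatoma library 1, 2 or 4 (adjusted p between 0.0575 and 0.0903). Unlike Abcb11 and Abcc2, it did not move with albumin: for each 1000 RPKM of Alb it stood at 20.2, 506, 1.59 and 1.00 RPKM in hepatomas, against 0.283, 0.359 and 0.414 RPKM in control livers. Pex19 and Pex14 were called higher there and turned negative under both scalings. Abcd4, which moves cobalamin out of lysosomes, rose in hepatomas and fell in DEN livers. The rat gene (GeneID 299196) had 3.29, 4.34, 2.68 and 3.40 RPKM in hepatomas, against 2.05, 2.14 and 1.50 RPKM in control livers (0.61 ± 0.17, adjusted p = 0.0198), the sign turned under both scalings, and the call was lost without control library 3 or hepatoma library 4. In DEN mice it (GeneID 19300) had 1.45, 1.81 and 1.59 RPKM in livers with tumours, against 3.18, 2.56 and 2.99 RPKM in livers before tumours (-0.58 ± 0.13, adjusted p = 0.0193), a call lost without library 1 or 3 of either group and under both scalings.

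**Figure D5:**
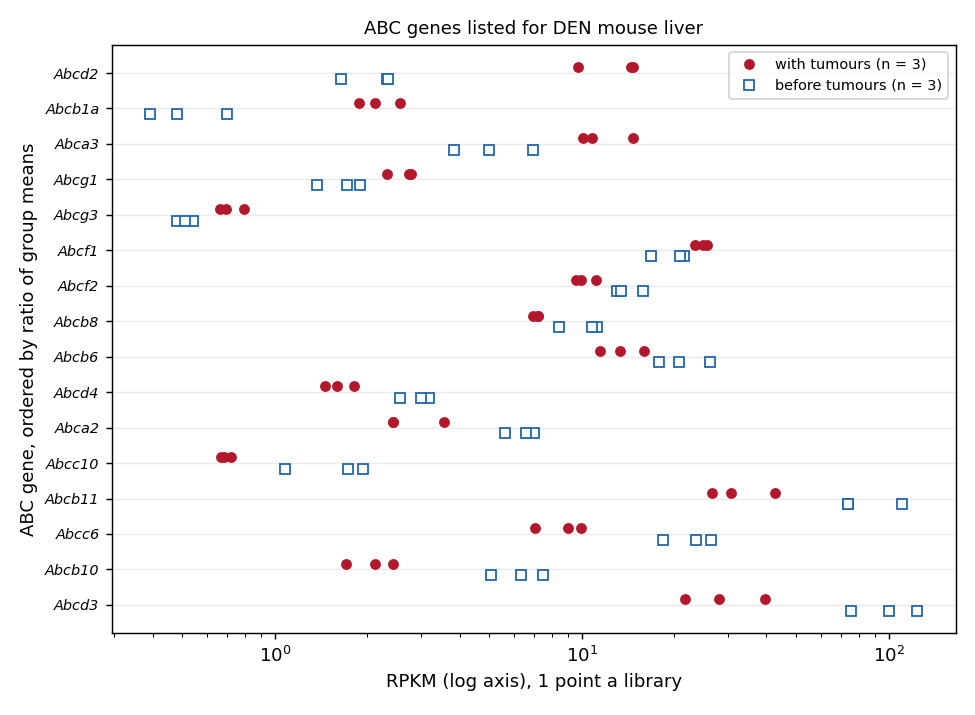
RPKM by library (horizontal log axis) of the 16 ABC genes listed for DEN mouse liver, ordered by the ratio of group means; filled circles are 3 livers with tumours and open squares 3 livers before tumours. The groups do not overlap for any gene, but every listed gene had to differ. The share without overlap among all listed genes was not counted. Abcd2 is at the top with 9.73 to 14.7 RPKM against 1.65 to 2.34 RPKM. Abcd3 is at the bottom with 21.8 to 39.6 RPKM against 75.3 to 124 RPKM.

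The mitochondrial members of subfamily B moved in different directions. Abcb6, a porphyrin transporter, fell in hepatomas. It (GeneID 140669) had 2.67, 2.30, 7.70 and 4.24 RPKM in hepatomas, against 13.1, 13.9 and 9.79 RPKM in control livers (-1.44 ± 0.32, adjusted p = 0.00598). In DEN mice Abcb6 (GeneID 74104) had 16.0, 13.3 and 11.5 RPKM in livers with tumours, against 20.7, 17.8 and 26.2 RPKM in livers before tumours and did not pass the threshold (-0.62 ± 0.18, adjusted p = 0.0598). Abcb10, an inner membrane transporter needed for haem synthesis in red cell precursors, fell in DEN livers with tumours. It (GeneID 56199) had 1.71, 2.43 and 2.11 RPKM in livers with tumours, against 6.32, 5.05 and 7.48 RPKM in livers before tumours (-1.23 ± 0.16, adjusted p = 0.00227), a call that held under both scalings and without each library in turn. The rat Abcb10 (GeneID 361439) had 3.50, 2.86, 3.44 and 3.64 RPKM in hepatomas, against 2.18, 2.23 and 2.89 RPKM in control livers, the groups overlapped, and the test did not pass (0.35 ± 0.15, adjusted p = 0.137), though it was called lower under both scalings.

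Abcb8, an inner membrane transporter linked to iron export from mitochondria, is one of the 3 members listed in all 3 tables. The rat gene (GeneID 362302) had 14.2, 17.9, 11.8 and 14.7 RPKM in hepatomas, 7.57, 8.64, 9.84 and 10.7 RPKM in regenerating livers and 5.07, 5.55 and 4.37 RPKM in control livers. Hepatomas lay highest and the 3 groups did not overlap. The log2 fold change over control was 1.37 ± 0.18, adjusted p = 0.00012 in hepatomas and 0.76 ± 0.14, adjusted p = 0.0309 in regenerating livers. The direct difference was 0.61 ± 0.16, adjusted p = 0.0348, which turned to lower in hepatomas under both scalings, and so did the change of hepatomas over control. That direct call was lost without hepatoma library 1, 2 or 4 or regenerating library 1, 2 or 3. In regenerating livers the call was lost under both scalings (adjusted p = 1 in each) and without any 1 of 6 of the 7 libraries, regenerating library 1 being the exception. In DEN mice Abcb8 (GeneID 74610) had 6.93, 7.22 and 7.22 RPKM in livers with tumours, against 11.2, 10.8 and 8.46 RPKM in livers before tumours and did not pass the threshold (-0.45 ± 0.14, adjusted p = 0.0843). Partner genes of iron-sulphur and haem synthesis were mixed: 3 of 5 fell in DEN livers, and 3 rose and 3 fell of 7 in hepatomas. Of all tested genes 49.5% were called lower in DEN livers, and 85.5% higher and 8.73% lower in hepatomas. None of the 3 rises in hepatomas passed the threshold under either scaling, and the 3 falls did under both. Of the 3 falls in DEN livers that of Glrx5 alone kept its call under both. Glrx5, a glutaredoxin of iron-sulphur assembly, fell in both models (-1.51 ± 0.16, adjusted p = 0.000842 in DEN livers and -0.76 ± 0.26, adjusted p = 0.0446 in hepatomas), and both calls held under both scalings.

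The members without a membrane domain, Abce1, Abcf1, Abcf2 and Abcf3, all rose in hepatomas, where 85.5% of all tested genes did. Abce1 (GeneID 361390), which splits ribosomes after translation ends, had 51.5, 69.4, 63.6 and 56.5 RPKM in hepatomas, against 16.6, 16.6 and 15.5 RPKM in control livers (1.82 ± 0.17, adjusted p = 1.44e-05). Abcf1 (GeneID 85493), a factor that binds ribosomes and eIF2, had 48.9, 60.2, 45.2 and 38.9 RPKM in hepatomas, 14.0, 14.5, 14.2 and 18.0 RPKM in regenerating livers and 12.0, 12.2 and 10.2 RPKM in control livers. Hepatomas lay above both other groups (1.97 ± 0.19, adjusted p = 1.64e-05 over control and 1.60 ± 0.16, adjusted p = 4.41e-06 over regenerating livers). Regenerating livers lay above control livers in every library without passing the threshold (0.37 ± 0.13, adjusted p = 0.281). Abcf2 (GeneID 311959), a related soluble member, had 41.9, 54.5, 36.7 and 39.1 RPKM in hepatomas, 12.6, 11.8, 13.9 and 14.0 RPKM in regenerating livers and 10.6, 12.1 and 8.91 RPKM in control livers. It rose in hepatomas (1.93 ± 0.19, adjusted p = 2.14e-05 over control and 1.63 ± 0.16, adjusted p = 2.23e-06 over regenerating livers), while regenerating and control livers overlapped (0.29 ± 0.13, adjusted p = 0.673). For both genes the call against regenerating livers was lost under both scalings (adjusted p = 1 in each). Abcf3 (GeneID 287982) had 40.5, 37.0, 26.2 and 34.2 RPKM in hepatomas, against 13.0, 15.1 and 8.52 RPKM in control livers (1.44 ± 0.23, adjusted p = 0.000511).

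Abce1, Abcf1 and Abcf2 kept a positive sign in hepatomas under both scalings, and Abcf3 did not. Of these 3 only Abcf1 passed the threshold, and only after quantile normalization. Their rises, 1.82 to 1.97 on the log2 scale, lay 0.24 to 0.39 above the median of all tested genes. All 6 listed partners in ribosome recycling and initiation were called higher too, against 85.5% of all tested genes, with Eif2s1 at 3.53 ± 0.21, adjusted p = 1.21e-06. Etf1 and Pelo turned to lower when medians were set equal. In DEN mice Abcf1 (GeneID 224742) had 23.4, 24.8 and 25.5 RPKM in livers with tumours, against 16.8, 21.5 and 20.9 RPKM in livers before tumours and Abcf2 (GeneID 27407) had 9.59, 9.92 and 11.1 RPKM in livers with tumours, against 15.9, 13.1 and 13.4 RPKM in livers before tumours. Neither passed the threshold (0.31 ± 0.14, adjusted p = 0.333 for Abcf1 and -0.43 ± 0.13, adjusted p = 0.0857 for Abcf2), but Abcf1 was called higher with medians set equal (adjusted p = 0.0255) and after quantile normalization (adjusted p = 0.00927).

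The symbols listed for both DEN livers and hepatomas number 12, and for these the values of the models stand side by side without a test between species. Abcb11, Abcc6 and Abcd3 fell in both models, and these falls were called in both. In hepatomas Abcb11 and Abcc6 passed the filter through the control livers only and so had to differ. Of all tested genes 49.5% were called lower in DEN livers and 8.73% in hepatomas. Each of these hepatoma calls was lost when certain single libraries were left out. In DEN livers the Abcb11 call was lost under both scalings and the Abcd3 call after quantile normalization. Abca2, Abcc10 and Abcd4 were called lower in DEN livers and higher in hepatomas, where their sign depended on the scaling. Abcc10 passed the filter through 1 group only in each model and so had to differ. On the values as deposited, Abcb10 was called in DEN livers and not in hepatomas, Abcb6, Abcb8, Abcf1, Abcf2 and Abcg3 were called in hepatomas and not in DEN livers, and the difference between models was not tested. The 6 members listed for both rat groups, which share controls, were Abcg5, Abcg8, Abca7, Abcb8, Abcf1 and Abcf2, and of these Abcg5 and Abcg8 alone were higher in regenerating livers and lower in hepatomas than every control library. How many of all genes listed for both rat groups do so was not counted.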

How the data were processed

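RNA sequencing of 17 samples was deposited as 3 tables. The authors deposited 1 value per gene and library, scaled by length and depth and treated here as RPKM. No header states the unit, and low values move in steps as RPKM do. The deposited log2 ratio was within 0.01 of the ratio of group means in all listed genes. The p-value column, which per the file headers is Holm corrected, was within 1% of an uncorrected equal-variance comparison of the means in all listed genes. Aligner, genome build and counting are not given in the sources used here.

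ABC genes were found by symbol, and each identifier matched GENCODE M21 or RefSeq GRCr8. limma 3.58.1 with its trend and robust options, under R 4.3.3, was fitted to log2(RPKM + 1) of each whole table. A gene was tested if it reached 1 RPKM in a number of libraries equal to the size of the smaller group. Benjamini-Hochberg adjustment counted 21951 mouse or 23154 rat protein-coding genes. Since listed genes were preselected, adjusted p-values may be too small. The procedure was tested on simulated data. Other steps used Python 3.11.15, pandas 2.3.3 and numpy 2.4.6. Members and lists were chosen with earlier results of these data known. Values in every library are given for members called with an absolute log2 fold change of at least 1 or listed in 2 or more tables; other genes come from the partner lists, at most 3 a list. A few single genes are counted in the lists but not reported by name here. Alternatives were the pseudocount, the filter, scaling, the adjustment, a replicate block, all rat groups in 1 fit and leaving out libraries. Sequences are from RefSeq GRCr8.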

Additional observations from a re-analysis of the deposited data

Results flagged for a closer look

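A library far from the others of its group was found in 3 of 36 groups of 4 libraries, where chance gives about 5%. Abcc1 had 15.5 RPKM in hepatoma library 1, against 6.09 to 7.60 RPKM in the other hepatomas. Abcc8 had 0.221 RPKM in hepatoma library 3, against at most 0.0307 RPKM in the others. Abcf1 had 17.95 RPKM in regenerating library 4, against 14.0 to 14.5 RPKM in the others.

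Ratios of group means on opposite sides of 1 in every library were found for 6 symbols when DEN livers (with tumours over before tumours) and hepatomas (over control) are set side by side. They were 1.40 in DEN livers and 0.176 in hepatomas for Abcg3, 0.724 and 4.09 for Abcf2, 0.701 and 2.93 for Abcb8, 0.556 and 1.81 for Abcd4, 0.439 and 2.51 for Abca2, and 0.435 and 1.90 for Abcc10. Of all tested genes 49.5% were called lower in DEN livers and 85.5% higher in hepatomas, the directions of all these symbols but Abcg3. In hepatomas the sign of Abcb8, Abcd4, Abca2 and Abcc10 turned under both scalings. How many of all symbols listed for both models differ in this way was not counted. These differences between species and models were not tested.

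Hepatomas and regenerating livers lay on opposite sides of the controls for Abcg5 and Abcg8. The share of all genes listed for both rat groups with this pattern was not counted. The direct differences were -3.28 for Abcg5 and -1.64 for Abcg8 on the log2 scale, and both passed the threshold in limma. Both genes passed the filter of that comparison through the regenerating livers only and so had to differ.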

How the results depend on the processing

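The calls rest on preselected genes, on 3 or 4 libraries a group and on unknown read totals. Scaling turned the direction of 10 named members in hepatomas. With library medians set equal, hepatoma over control became -0.12 for Abcc4, -0.71 for Abcg3l1, -0.73 for Abcg3l3, -0.29 for Abcb8, -0.22 for Abcf3, -0.57 for Abca2, -0.95 for Abcg3l2, -1.12 for Abcc10, -1.06 for Abcd4 and -1.32 for Abcb10. Quantile normalization gave -0.030 for Abcc4, -0.48 for Abcg3l1, -0.53 for Abcg3l3, -0.28 for Abcb8, -0.030 for Abcf3, -0.58 for Abca2, -0.79 for Abcg3l2, -0.92 for Abcc10, -1.01 for Abcd4 and -1.28 for Abcb10. Against regenerating livers Abcb8 in hepatomas became -0.93 under each. Both scalings centre the libraries on genes selected as changed.

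Counts of called members moved as follows. Under median scaling they were 5 higher and 3 lower in DEN livers, 3 higher and 15 lower in hepatomas, 1 higher in regenerating livers and 0 higher in hepatomas against regenerating livers, with 445 of all 1673 genes still called higher there. After quantile normalization they were 5 and 3 in DEN livers, 4 and 12 in hepatomas, 1 higher in regenerating livers and 1 higher in the direct comparison. In hepatomas a pseudocount of 0.1 left 4 lower, a filter at 5 RPKM left 10 higher (and 1 lower in the direct comparison) with fewer genes tested, and the fit of all 3 rat groups, on genes listed in both tables, left 4 higher and 1 lower. Adjustment over the tested genes alone called 5 members higher in regenerating livers. Without each library in turn, 3 to 7 members were lower in hepatomas, with 3 without control library 1 or 2 and 4 without hepatoma library 1. In regenerating livers 1 to 3 were higher, with 1 without control library 1. The cause of these moves was not tested. With hepatoma libraries 3 and 4 left out, added after the data were seen, 17 were higher and 7 lower.

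Libraries of the same number did not deviate together (correlations between -0.317 and 0.151), so the numbers were not taken as pairs; with a replicate block 2 members were lower in hepatomas and 1 higher in regenerating livers, and in DEN livers 3 were higher and 6 lower.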

Other observations

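The antigen peptide transporter genes Tap1 and Tap2, which belong to the ABC family under other symbols, were called higher in hepatomas. Tap2 had 22.2, 24.1, 19.8 and 22.4 RPKM in hepatomas, against 7.65, 8.59 and 5.54 RPKM in control livers (log2 fold change 1.50 ± 0.18, adjusted p = 6.95e-05 in limma), and Tap1 had 19.6, 31.2, 19.6 and 21.4 RPKM in hepatomas, against 12.5, 11.1 and 6.49 RPKM in control livers (1.14 ± 0.25, adjusted p = 0.00448). Both turned to lower under both scalings. In regenerating livers Tap2 had 10.4, 9.46, 10.1 and 11.3 RPKM and did not pass the threshold (0.47 ± 0.15, adjusted p = 0.19).

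Of 3 listed genes of high-density lipoprotein and sterol acceptors, 2 rose in DEN livers with tumours, Apoa1 and Scarb1, and Lcat did not pass the threshold. Among all tested genes 17.9% were called higher there. Apoa1, the main protein of high-density lipoprotein, had 46656, 39650.2 and 39215 RPKM in livers with tumours, against 14236, 17017 and 19362 RPKM in livers before tumours (1.32 ± 0.18, adjusted p = 0.00241). Scarb1, the receptor of that particle, had 134, 110.3 and 159 RPKM in livers with tumours, against 76.8, 63.7 and 73.6 RPKM in livers before tumours (0.89 ± 0.17, adjusted p = 0.0122). In hepatomas 1 of 5 tested genes of this list was called higher, 1 lower, and 3 did not pass the threshold. Of all tested genes 85.5% were called higher there and 8.73% lower. Npc2 rose (1.53 ± 0.20, adjusted p = 0.000122) but turned to lower with medians set equal. Apoe, another lipid carrier, fell and had 167, 190.4, 1592 and 1498 RPKM in hepatomas, against 11180.5, 10972 and 4372 RPKM in control livers (-3.95 ± 1.04, adjusted p = 0.0284), with an adjusted p of 0.0554 after quantile normalization. Rxra, the shared partner of the nuclear receptors, had 54.8, 50.8, 74.1 and 53.6 RPKM in regenerating livers, against 30.0, 33.8 and 38.4 RPKM in control livers (0.75 ± 0.16, adjusted p = 0.0485), a call lost under both scalings (adjusted p = 1 in each).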
